A study of Mus musculus with 6 samples.

Results

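The acrosome is a secretory vesicle derived from the Golgi that caps the nucleus of the sperm head. It grows in round spermatids as vesicles are delivered to the nuclear envelope, is held there by a cytoskeletal layer called the perinuclear theca, and is filled with enzymes and binding proteins that are released when a sperm meets the egg. Membrane proteins exposed at that moment, among them Izumo1 and its partners, then join the sperm to the egg membrane. The 33 genes described here encode acrosomal matrix and membrane proteins, factors that build the acrosome, sperm-egg fusion proteins and components of the sperm head. They were chosen by symbol, without the Adam and Prss protease families, and all 33 were found among the 36652 genes of the deposited table.

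RNA was sequenced from testes of mice aged 8 weeks, in 3 WT libraries and 3 that carry the label Ccdc117ko. The series asks what loss of Ccdc117, a gene for a protein with a coiled-coil domain, does to androgen production, sperm formation and fertility. The labels give neither the allele nor the strain, and do not say whether each library is 1 animal, and the tests reflect only how far these libraries vary, which may be technical. Whole-testis RNA holds every germ cell stage and the somatic cells together. In such bulk samples a change in the number of spermatids and a change in RNA per spermatid cannot be told apart.

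The reads recovered from the table came to 35791616 to 43461692 per library. Ccdc117 was present at 3657, 3826 and 3931 normalized counts in the WT libraries and at 3478, 3772 and 3908 in the libraries labelled Ccdc117ko, so the groups overlapped (limma log2 fold change -0.03, adjusted p = 0.763). This level does not check the genotype labels, because a deletion of a few exons need not lower the count of a whole gene. Directions therefore refer to libraries by their label, Ccdc117ko relative to WT. Normalized counts are reads divided by a size factor for each library. A gene was called when its adjusted p over all 32783 genes tested was under 0.05.

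Of the 33 genes, 18 were higher in the libraries labelled Ccdc117ko, none was lower and 15 were not called in limma. Of the 18 that rose, 16 were among the 23 listed as matrix, membrane or fusion genes. These roles were assigned with earlier results of these data known. In the same test 3.70% of all genes tested were called higher and 3.10% lower, 6.80% in either direction. At an unadjusted p under 0.05, 24 of the 33 were higher and 2, Gopc and Dpy19l2, lower, as were 11.1% and 11.6% of all genes tested. The log2 fold change was above 0 for 28 of them, as for 50.2% of all genes tested. The genes that rose did so by 1.15-fold to 1.39-fold, with adjusted p-values of 0.00948 to 0.0386. The median log2 fold change of all 33 was 0.27, against 0.00 over all genes tested. All 3 Ccdc117ko values lay above all 3 WT values for 23 of the 33 genes, as for 13.7% of all genes tested, and below them for 3, as for 13.3% of all genes tested. By role as listed, 5 of 8 matrix genes, 5 of 7 membrane genes and 6 of 8 fusion genes rose, and 1 of 5 biogenesis genes and 1 of 5 genes of the theca and egg activation did so, with no test between the roles. Some genes of other roles are also needed to form the acrosome. Of these, Izumo3, listed under fusion, and Spaca1, listed under membrane, rose. Zpbp, listed under matrix and needed for a compact acrosome, was not called (limma adjusted p = 0.0604).

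**Figure D1:**
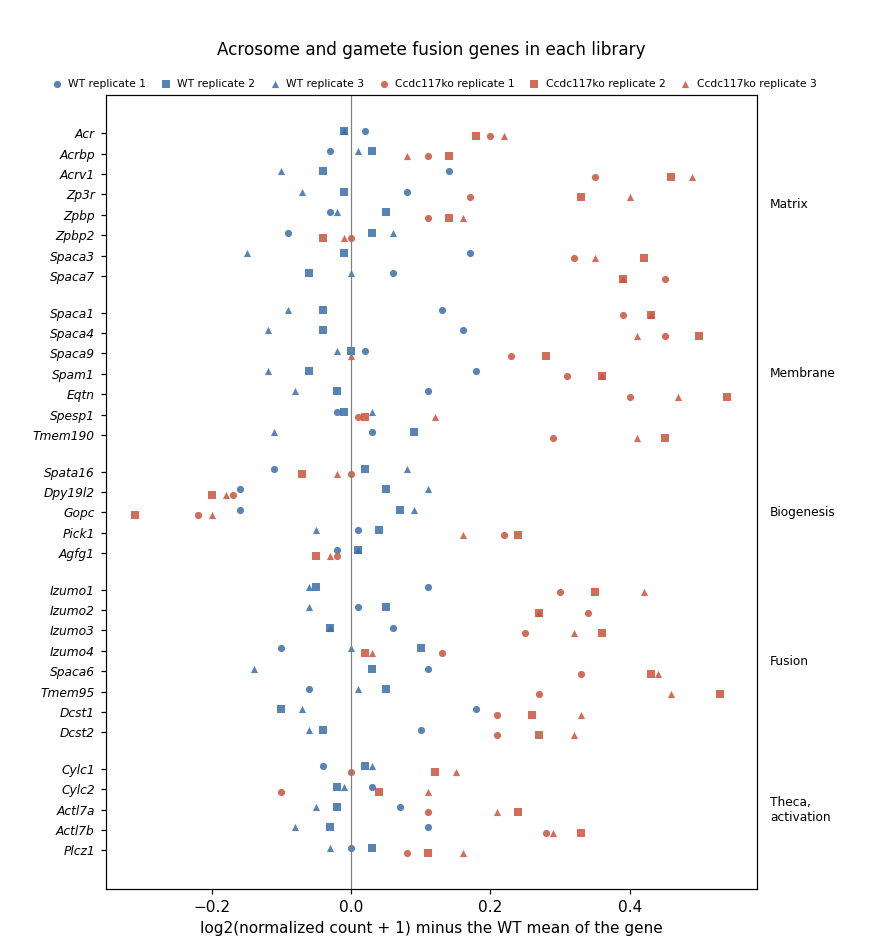
Each gene in each of the 6 libraries, as log2(normalized count + 1) minus the WT mean of that gene, grouped by role. Points of the Ccdc117ko libraries lie to the right of all WT points for 23 genes, and WT replicate 1 is often the WT library nearest to them.

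The matrix proteins are released from the acrosome when it opens. Acrv1, which encodes the acrosomal vesicle protein SP-10 (chromosome 9, 36693220 to 36698843, plus strand, mm10), had 7669, 6774 and 6508 normalized counts in the WT libraries and 8849, 9572 and 9805 in the Ccdc117ko libraries. The groups did not overlap, although WT replicate 1 stood above the other WT libraries and Ccdc117ko replicate 1 below the other Ccdc117ko libraries. Mean levels were 6984 ± 609 in WT and 9409 ± 498 in Ccdc117ko (SD, n = 3 per group), and limma gave a log2 fold change of 0.43 (SE 0.07, adjusted p = 0.0173). Spaca7, another acrosomal protein, had the smallest adjusted p of the 33 genes. Its counts were 2776, 2565 and 2665 against 3634, 3483 and 3490, a log2 fold change of 0.41 (SE 0.04, limma adjusted p = 0.00948).

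The other matrix genes that rose encode a protease, a lysozyme-like protein and a zona-binding protein. Acr, the gene of the protease acrosin, was 8461, 8253 and 8242 in WT and 9560, 9436 and 9692 in Ccdc117ko, with a narrow spread in both groups. Its log2 fold change of 0.20 was the smallest among the genes that rose (limma adjusted p = 0.0174). Spaca3, which encodes a lysozyme-like acrosomal protein, ran from 4712, 4154 and 3771 to 5249, 5630 and 5353, and Zp3r, the gene of the sperm protein sp56, from 4768, 4487 and 4310 to 5098, 5676 and 5958. Both kept the groups apart, with log2 fold changes of 0.37 (limma adjusted p = 0.0339) and 0.30 (0.0358).

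Acrbp, Zpbp and Zpbp2 were not called. Acrbp, whose product binds the acrosin precursor, had 16522, 17241 and 16982 in WT and 18266, 18573 and 17869 in Ccdc117ko. Zpbp, a matrix protein gene needed for a compact acrosome, had 8791, 9313 and 8819 against 9712, 9897 and 10034. Neither gene overlapped between the groups, with log2 fold changes of 0.11 (SE 0.03, limma adjusted p = 0.0884) and 0.14 (SE 0.04, adjusted p = 0.0604). Zpbp2, the paralog of Zpbp, overlapped, at 9446, 10283 and 10455 against 10041, 9760 and 10010, with a log2 fold change of -0.02 (SE 0.04, limma adjusted p = 0.879).

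Membrane proteins hold the acrosome in shape and bind the coat of the egg. Eqtn, the gene of equatorin in the acrosomal membrane, had the highest log2 fold change of the 33 genes. Its counts were 3449, 3158 and 3023 in WT and 4227, 4662 and 4445 in Ccdc117ko, a log2 fold change of 0.47 (SE 0.06, limma adjusted p = 0.013). Spaca4, which encodes a small membrane-anchored protein of the Ly6 family, followed with 3287, 2855 and 2714 against 4028, 4173 and 3915, a log2 fold change of 0.46 (SE 0.07, limma adjusted p = 0.0172). Every Ccdc117ko value of both genes exceeded every WT value, and WT replicate 1 was again the highest of its group.

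Spaca1, a membrane protein gene needed to form the acrosome (chromosome 4, 34024874 to 34050191, minus strand), had 6756, 5997 and 5801 in WT and 8098, 8337 and 8340 in Ccdc117ko. Spam1, the gene of the sperm hyaluronidase PH-20, had 2475, 2101 and 2005 against 2701, 2807 and 2810. Tmem190, a small transmembrane protein gene, had 1968, 2054 and 1786 against 2367, 2648 and 2572. The Ccdc117ko values were higher in all 3 genes, with log2 fold changes of 0.42, 0.34 and 0.39 (limma adjusted p = 0.0148, 0.0386 and 0.0203).

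Spesp1 and Spaca9, which were listed with the membrane genes, were not called. Spesp1 encodes a protein of the equatorial segment, the band of the acrosome where fusion begins, and had 11035, 11119 and 11397 against 11227, 11352 and 12163, which overlapped (log2 fold change 0.05, SE 0.04, limma adjusted p = 0.523). For Spaca9, whose product is also found in cilia, Ccdc117ko replicates 1 and 2 had 10608 and 10993, above the WT values of 9141, 9025 and 8929, while Ccdc117ko replicate 3 had 9042. Its log2 fold change was 0.17 (SE 0.07, limma adjusted p = 0.184).

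Fusion proteins act on the sperm surface after the acrosome has opened. Izumo1, whose product binds its receptor on the egg, had 3520, 3155 and 3116 normalized counts in WT and 4007, 4160 and 4371 in Ccdc117ko, a log2 fold change of 0.36 (SE 0.06, limma adjusted p = 0.0189). Its paralogs Izumo2 and Izumo3 also rose, Izumo2 from 2879, 2966 and 2756 to 3626, 3465 and 3450 and Izumo3, which is needed for acrosome formation, from 3010, 2838 and 2819 to 3429, 3709 and 3598. The log2 fold changes were 0.29 and 0.31 (limma adjusted p = 0.0164 and 0.0169). Izumo4, the remaining paralog, overlapped between the groups at 4281, 4889 and 4572 against 5021, 4652 and 4655, with a log2 fold change of 0.06 (SE 0.06, limma adjusted p = 0.582).

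The 4 other fusion genes encode proteins without which sperm bind eggs but do not fuse. Spaca6 rose from 1783, 1682 and 1499 to 2073, 2230 and 2238, and Tmem95 from 585, 632 and 615 to 739, 882 and 840. With log2 fold changes of 0.40 (SE 0.07) and 0.42 (SE 0.08), these were the largest rises among the fusion genes (limma adjusted p = 0.0209 and 0.0232). Dcst1 and Dcst2 lie head to head on chromosome 3, with RefSeq start sites 66 bases apart. Dcst1 had 3775, 3113 and 3179 against 3858, 4014 and 4200, and Dcst2 had 3854, 3488 and 3459 against 4163, 4347 and 4483. Both had a log2 fold change of 0.27, but the spread of Dcst1 was wider (SE 0.08, limma adjusted p = 0.0772) than that of Dcst2 (SE 0.05, adjusted p = 0.0295), and only Dcst2 was called.

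**Figure D2:**
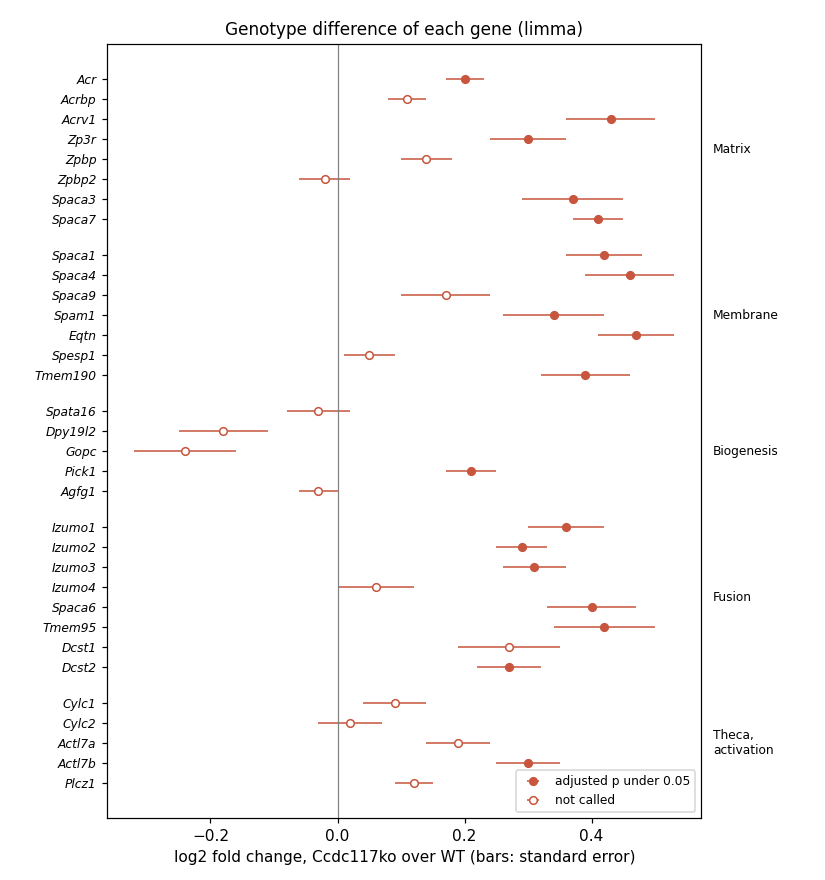
The log2 fold change of each gene, Ccdc117ko over WT, with its standard error from limma; filled points were called. Values run from -0.24 for Gopc to 0.47 for Eqtn, and 4 of the 5 biogenesis genes lie lowest or near 0, with Pick1 at 0.21.

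Biogenesis genes encode the Golgi and nuclear envelope proteins that form and anchor the vesicle. Pick1, a scaffold protein gene of vesicle traffic, was the only one of the 5 to rise, from 3271, 3352 and 3141 to 3790, 3842 and 3623 (log2 fold change 0.21, SE 0.04, limma adjusted p = 0.0332). Gopc, the gene of a Golgi protein that partners with Pick1, had 946, 1109 and 1126 in WT and 904, 855 and 923 in Ccdc117ko. Dpy19l2, whose product fastens the acrosome to the nucleus, had 6001, 6963 and 7275 against 5979, 5851 and 5936. In both genes the Ccdc117ko values lay below all WT values, but WT replicate 1 was close to them, and neither was called (log2 fold changes -0.24 and -0.18, SE 0.08 and 0.07, limma adjusted p = 0.102 and 0.153).

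Spata16 and Agfg1 differed little. Spata16, a gene of the Golgi and vesicles of spermatids, had 10395, 11386 and 11844 against 11190, 10692 and 11019, and Agfg1, which is needed for the vesicles to merge, had 7687, 7870 and 7850 against 7672, 7539 and 7654. Their log2 fold changes were both -0.03 (SE 0.05 and 0.03, limma adjusted p = 0.789 and 0.579). The Agfg1 groups did not overlap, with Ccdc117ko replicate 1 just below WT replicate 1.

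The theca lies between the acrosome and the nucleus. Actl7b, an actin-like gene, was the most abundant of the 33, with 32298, 29345 and 28186 in WT and 36173, 37579 and 36662 in Ccdc117ko, a log2 fold change of 0.30 (SE 0.05, limma adjusted p = 0.0201). Its neighbour Actl7a, whose start site lies 1997 bases away in the opposite orientation, had 13058, 12191 and 11974 against 13379, 14687 and 14332 and was not called (log2 fold change 0.19, SE 0.05, limma adjusted p = 0.0601). Plcz1, the phospholipase that starts egg activation, had 8262, 8401 and 8099 against 8749, 8931 and 9203 (log2 fold change 0.12, SE 0.03, limma adjusted p = 0.0839). Both kept the groups apart. The cylicin genes of the theca overlapped, Cylc1 at 2071, 2156 and 2169 against 2139, 2311 and 2365 and Cylc2 at 6504, 6294 and 6350 against 5962, 6561 and 6889, with log2 fold changes of 0.09 (limma adjusted p = 0.33) and 0.02 (0.902).

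Levels of different genes were set side by side per kilobase of the longest transcript. In WT, Actl7b stood first at 20808 normalized counts per kilobase, followed by Spaca9 at 12921, Acrbp at 8983 and Actl7a at 8201. Gopc was lowest at 181, below Spaca6 at 406 and Agfg1 at 970. Actl7b, at the top, and Spaca6, next to the bottom, both rose.

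Some counts may hold reads of other genes, since the use of strand in counting is not given in the sources used here. Of the exonic bases of Actl7b, 90.9% lie opposite an exon of Gm26657, which itself had 84.4 normalized counts in WT and 92 in Ccdc117ko. Acrbp shares 25.8% of the 50-base words of its longest transcript with Gm44597 (524 and 437 normalized counts), Izumo1 24.5% with Rasip1 (300 and 283), and Pick1 32.2%, mainly with Gm49486 (30.5 and 17.1). None of these 4 overlapping genes was called in limma (adjusted p = 0.625, 0.0893, 0.71 and 0.293), and all had far lower counts than the member they overlap. Those counts come from the same counting step, so they do not show how uncertain the values of these 4 members are. Smaller overlaps on the opposite strand also occurred. Among them, 24.2% of the exonic bases of Dcst1 lie opposite Gm10702 (3.3 and 1.34 normalized counts). For Spaca7, 13.5% lie opposite D630011A20Rik, which has no row in the deposited table.

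Single calls depended on the replicates. When any 1 library other than WT replicate 1 was left out, limma called 0 of the 33 genes, while 23 to 25 of them had an unadjusted p under 0.05, as did 17.7% to 20.6% of all genes tested. Without WT replicate 1 it called 15 higher and 2 lower (Gopc and Dpy19l2), where 2.41% of all genes tested were called higher and 1.46% lower. With only genes averaging 10 or more normalized counts tested, where 8.35% of genes were called higher and 8.25% lower (16.6% in either direction), 21 of the 33 were called higher and 1, Gopc, lower (adjusted p = 0.0435). The added genes were Zpbp, Dcst1 and Actl7a. With that filter 17 of the 18 genes stayed called whichever library was left out, a setting chosen after the data were seen. The exception was Pick1, whose adjusted p reached 0.0654. The authors' deposited table gives an FDR under 0.05 to 24 of the 33 genes with higher values and to 2 with lower values, Gopc and Dpy19l2, where 5.78% and 5.77% of its genes have one.

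WT replicate 1 was the highest WT library for 14 of the 18 genes that rose and for 4 of the 15 others. Over all 1212 genes called higher it was the highest WT library in 58.1%, and over all genes tested in 38.9%. Summed over the 18 genes, the libraries had 97522, 89857 and 86415 normalized counts in WT and 111810, 116640 and 115645 in Ccdc117ko. Over the 15 others the sums were 117916, 121354 and 121021 against 124707, 126668 and 126295. The 33 genes together made up 0.529% to 0.555% of the counts in WT libraries and 0.601% to 0.622% in Ccdc117ko libraries.

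Ratios between members within a library do not depend on the scaling of libraries. They can still carry the trend with transcript length and GC content described below, and were not corrected for it. Eqtn relative to Spesp1, a pair of acrosomal membrane genes, was 0.313, 0.284 and 0.265 in WT and 0.377, 0.411 and 0.365 in Ccdc117ko. Spaca1 relative to Spata16 was 0.65, 0.527 and 0.49 against 0.724, 0.78 and 0.757. Zpbp relative to Zpbp2 was 0.931, 0.906 and 0.844 against 0.967, 1.01 and 1. In all 3 pairs the groups were apart, with log2 ratio differences of 0.42, 0.45 and 0.16. Actl7b relative to Actl7a also differed without overlap, by 0.11, from 2.47, 2.41 and 2.35 to 2.7, 2.56 and 2.56.

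The remaining pairs overlapped. Izumo1 relative to Izumo4 was 0.822, 0.645 and 0.682 against 0.798, 0.894 and 0.939, and Dcst1 relative to Dcst2 was 0.98, 0.892 and 0.919 against 0.927, 0.923 and 0.937. Over the 6 pairs, which were picked after their values were seen, the two-sided exact permutation p was 0.10 for each of the 4 pairs whose groups were apart, the smallest that 3 against 3 libraries allow. It was 0.20 for Izumo1 over Izumo4 and 1 for Dcst1 over Dcst2, and the values adjusted over the 6 pairs were 0.15, 0.24 and 1. No pair therefore passed a threshold of 0.05, which this design cannot reach.

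**Figure D3:**
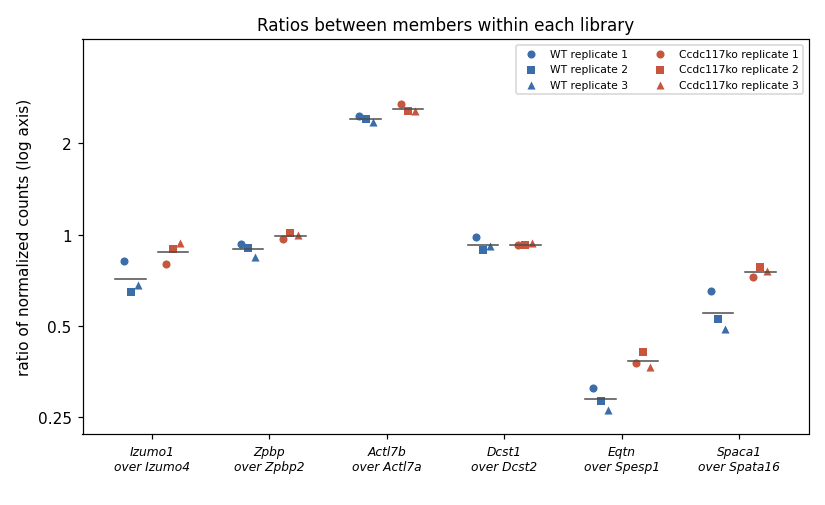
Ratio of normalized counts between 2 members within each library on a log axis, with the mean of each group on the log scale as a line. The groups are apart for Eqtn over Spesp1, Spaca1 over Spata16, Zpbp over Zpbp2 and Actl7b over Actl7a, and overlap for the other 2 pairs.

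The stretches before the start sites of 2 pairs of paralogs are shown, one pair that rose (Izumo1 and Izumo2) and one that was not called (Zpbp and Zpbp2), because in each pair only 1 member holds a motif that was searched. Each run is the 250 bases before the RefSeq start site on GRCm38.p6, read 5′ to 3′ on the strand of the gene. Capitals mark TGACG or its reverse complement, the core of the element bound by CREM, a transcription factor that spermatids need, and the full palindrome TGACGTCA, which contains it.
Izumo1 promoter (chr7:45621561-45621810, plus strand): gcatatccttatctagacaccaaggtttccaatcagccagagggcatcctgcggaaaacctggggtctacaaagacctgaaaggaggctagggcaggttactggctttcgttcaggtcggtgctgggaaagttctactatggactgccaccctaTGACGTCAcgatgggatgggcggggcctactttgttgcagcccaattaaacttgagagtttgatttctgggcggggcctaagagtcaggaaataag
Izumo2 promoter (chr7:44708480-44708729, plus strand): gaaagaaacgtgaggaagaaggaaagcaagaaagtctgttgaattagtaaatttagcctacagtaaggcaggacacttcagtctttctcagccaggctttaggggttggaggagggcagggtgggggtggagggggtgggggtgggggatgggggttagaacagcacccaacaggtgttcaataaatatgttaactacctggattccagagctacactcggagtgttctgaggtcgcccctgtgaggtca
Zpbp promoter (chr11:11462420-11462669, minus strand): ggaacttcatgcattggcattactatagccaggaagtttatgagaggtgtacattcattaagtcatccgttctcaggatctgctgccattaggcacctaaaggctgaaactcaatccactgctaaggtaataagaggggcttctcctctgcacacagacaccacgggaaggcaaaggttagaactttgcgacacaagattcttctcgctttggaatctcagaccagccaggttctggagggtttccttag
Zpbp2 promoter (chr11:98550847-98551096, plus strand): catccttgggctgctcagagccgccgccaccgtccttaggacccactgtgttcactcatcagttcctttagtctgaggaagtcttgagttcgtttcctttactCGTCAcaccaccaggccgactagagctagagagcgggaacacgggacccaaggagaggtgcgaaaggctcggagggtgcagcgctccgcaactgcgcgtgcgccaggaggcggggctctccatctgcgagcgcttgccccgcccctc
Izumo1 holds the palindrome at positions -96 to -89 before the start site, and Zpbp2 the core on the opposite strand at -147 to -143, while the letters searched are absent from the windows of Izumo2 and Zpbp.

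Such windows were matched for 28 of the 33 genes, and those of Acr, Eqtn, Izumo4, Cylc2 and Plcz1 were not matched. Counting either strand, TGACG was found for 7 of the 28 genes (25%), against 17.8% of all 32851 windows of this length. These were Acrbp, Gopc, Izumo1, Spaca1, Spaca3, Tmem95 and Zpbp2, of which 4 were among the genes that rose and 3 were not. TGACGTCA was found for Izumo1 alone, against 1.55% of all windows. GTGTGT, a sequence bound by TDP-43, which is known at the promoter of Acrv1, was found for 5 genes (17.9%), Acrv1, Actl7b, Cylc1, Dcst1 and Spaca7, against 14.9% of all windows. A match in letters is a description and not a binding site.

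The genes that rose had shorter transcripts than the others. They also had a higher median GC content (51.3% against 45.3%) and a lower median WT level (3232 against 8254 normalized counts). Their longest transcripts ran from 531 bases for Tmem95 to 4074 for Spaca6, with a median of 1346, against a median of 2022 for the 15 other genes, which reached 8044 for Agfg1. Across the 33 genes, which share libraries and are not independent replicates, Spearman's rho between length and log2 fold change was -0.47. The same trend ran through the 14256 protein-coding genes that averaged 50 or more normalized counts (rho -0.389). Among coding genes under 2000 bases the median log2 fold change was 0.09 and 14.4% were called higher, and among longer ones the median was -0.07 and 3.73% were called higher. Of the 18 members under 2000 bases 11 rose (median 0.30), and of the 15 longer ones 7 rose (median 0.21).

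**Figure D4:**
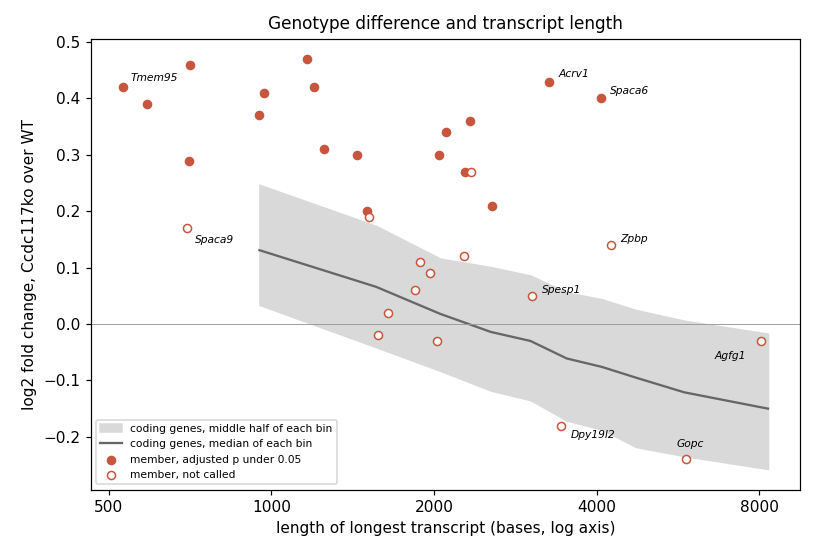
The log2 fold change of each member against the length of its longest transcript on a log axis. The band runs from the lower to the upper quartile and the line marks the median of coding genes in 10 bins of length, and Acrv1 (0.43) and Spaca6 (0.40) lie well above the band.

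A smooth trend with length and GC content was then removed from each library. With this correction 19 of the 33 genes were called higher and none lower, where 4.41% of all genes were called higher and 1.32% lower (5.73% in either direction). All 18 genes stayed called and Zpbp joined them, with a log2 fold change of 0.21. The median of the 33 was 0.24, against 0.02 over all genes. Across the 33, Spearman's rho between length and log2 fold change was -0.24 after the correction, against -0.47 before it. Restricting the corrected test to genes averaging 10 or more normalized counts gave 20 called higher and none lower, where 8.21% of genes were called higher and 4.02% lower (12.2% in either direction), a combination chosen after the data were seen. Single values moved by -0.08 to 0.12, and those of the long transcripts moved upwards, Gopc from -0.24 to -0.14, Agfg1 from -0.03 to 0.09, Acrv1 from 0.43 to 0.47 and Spaca6 from 0.40 to 0.47.

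Other genes of acrosome and fertilization biology were mixed by role. Of 72 such genes listed, 64 were matched and tested, of which 15 were higher, 3 lower and 46 not called (median 0.09). Among 12 other acrosomal proteins 7 rose, none fell and 5 were not called (median 0.22). Spaca5 rose most, by 0.54 on the log2 scale, and with Lyzl1 (0.48), Lyzl6 (0.48) and Lyzl4 (0.38) encodes lysozyme-like proteins (limma adjusted p = 0.0235, 0.0189, 0.0198 and 0.0393). Crisp2, an abundant acrosomal protein gene, had a log2 fold change of 0.01 (adjusted p = 0.889).

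Among 13 other fusion and zona binding factors 3 rose and 10 were not called (median 0.11). They were Llcfc1, a gene required for fusion, at 0.35, Pmis2, needed for zona binding, at 0.33, and Tmem81, whose product joins the Izumo1 complex, at 0.31 (limma adjusted p = 0.0135, 0.0169 and 0.0359). Of 9 other theca genes Cypt1 (0.25) and Capza3 (0.20) rose and 7 were not called (median 0.14, adjusted p = 0.0318 and 0.0254), and neither was called after the length and GC correction. Of 14 genes of acrosomal exocytosis, the release step, Napa rose by 0.18 (adjusted p = 0.0319) and 13 were not called (median -0.03). After the length and GC correction 3 of the 14 were called higher. They were Napa, Stx2 at 0.22 and Plcd4 at 0.21 (limma adjusted p = 0.0161, 0.0366 and 0.0269).

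The 16 other biogenesis genes tested went both ways, with a median of -0.09. Fam209, a partner of Dpy19l2 at the nuclear envelope, rose by 0.43, and Spink2, an acrosin inhibitor gene, by 0.18 (limma adjusted p = 0.0169 and 0.0429). Golga3, a Golgi protein gene, fell by 0.28, Rimbp3, a manchette protein gene, by 0.27 and Ccdc136, needed for the acrosome, by 0.22 (adjusted p = 0.0373, 0.0328 and 0.0229). After the length and GC correction Fam209 alone was called in this list, and the log2 fold changes of the 3 genes that had fallen were -0.15, -0.14 and -0.13. With that correction and only genes averaging 10 or more normalized counts tested, Rimbp3 and Ccdc136 were called lower (adjusted p = 0.0447 and 0.0354) and Golga3 was not (0.088).

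**Figure D5:**
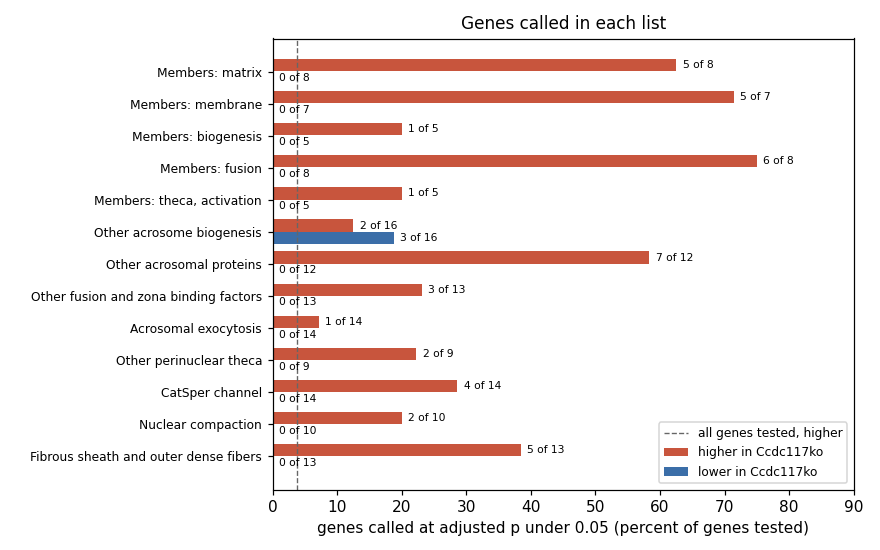
Percent of the genes tested in each list of members, related genes and other spermatid genes that were called higher or lower at an adjusted p under 0.05, with counts beside the bars and a dashed line at the 3.70% of all genes called higher. Fusion, membrane and matrix members and other acrosomal proteins have the longest bars. Of the 13 lists drawn, which leave out the cell type markers, other biogenesis genes alone hold calls lower.

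Spermatid genes of other structures are given for comparison, with no test between lists. Of 14 genes of the CatSper channel, the calcium channel of the sperm tail, 4 rose (median -0.05), led by Catsper4 at 0.45, Efcab9 at 0.41 and Catsper3 at 0.40. Of 13 genes of the fibrous sheath and outer dense fibers of the tail 5 rose (median 0.10), led by Odf3 at 0.38 and Cabyr at 0.34. Of 10 genes listed under nuclear compaction 2 rose, Hils1 at 0.28 and Prm3 at 0.24. The abundant Prm1, Prm2, Tnp1 and Tnp2 had -0.02, 0.07, 0.04 and 0.10 (limma adjusted p = 0.897, 0.507, 0.82 and 0.361). After the length and GC correction 3 of the CatSper genes and 2 of the fibrous sheath and outer dense fiber genes (Odf3 and Cabyr) were called higher. Of the genes listed under compaction Hils1 was called higher, and Prm3 was not called (limma adjusted p = 0.0599).

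Markers of other cells moved beside these genes. Of 11 spermatogonial markers 3 fell and none rose, with summed levels of 12736 to 13578 normalized counts in WT and 10722 to 11575 in Ccdc117ko, Kit falling by 0.52 and Etv5 by 0.44. Of 12 Sertoli cell markers 6 fell and none rose, Kitl by 0.40, and 2 of them were called lower after the length and GC correction. Their sums were 53331 to 54718 against 48218 to 50168, mostly Clu, which was not called (limma adjusted p = 0.0508), and 10140 to 10341 against 8435 to 8999 without it. Of 8 macrophage markers 2 fell, Fcgr3 by 0.35 and Mrc1 by 0.28, and none rose, with sums of 3585 to 4176 against 3277 to 3558. After the correction 1 of them, Fcgr3, was called. Of 10 pachytene spermatocyte markers Spag6 rose by 0.37 and Mybl1 fell by 0.37, with sums of 48171 to 49309 against 46620 to 47396. Of 9 Leydig cell markers 3 rose and 2 fell, with Star rising by 1.23 and Hsd3b1 falling by 0.90. Their sums were 68702 to 79413 against 80798 to 93822, mostly Insl3, which overlapped between the groups and was not called (limma adjusted p = 0.113), and 22690 to 26518 against 29446 to 32106 without it. Epididymal markers, of which 8 of 10 were matched, summed to 175 to 208 against 146 to 192, with Lcn8 at 0 in all WT libraries. None of the 7 tested was called by limma, and 3 had an unadjusted p under 0.05, 1 higher and 2 lower. After the length and GC correction 3 spermatogonial markers were still called lower. With it, 2 pachytene markers were called higher and 1 lower, and 3 Leydig cell markers higher and 1 lower. The part of cell composition in the rise of the acrosomal genes was not tested.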

How the data were processed

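The genotype in each sample's title gave its group, WT or Ccdc117ko, with 3 libraries each. Per the labels' protocols, total RNA was made into stranded mRNA libraries and sequenced on an Illumina instrument. The submitters' processing notes list mm10, STAR and DESeq2 without saying what each did or in which version, and how reads were counted is not given in the sources used here. Each of the 36652 genes in the table the authors deposited has 1 log2 value per library. These were taken to be log2(normalized count + 1), as the values show: with the log2 undone, 100% of values under 500 reads were whole multiples of 1 step within 0.01, which gives the reads. The deposited p-value and FDR columns, whose test is not stated, were used only where the authors' table is named.

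Limma-trend (limma 3.58.1, R 4.3.3) was fitted to the deposited values with no covariate besides genotype, over 32783 genes averaging 0.5 or more normalized counts. Adjusted p-values are Benjamini-Hochberg values over all of those genes, from two-sided tests. Log2 fold changes refer to log2(normalized count + 1), which understates changes of low genes, and values written as fold are 2 to that power. On simulated data the same fit called 0 of 97749 unchanged genes. In the right direction it called 18 of 150 genes changed 1.25-fold (12%) and 59 of 150 changed 1.5-fold (39.3%). These were drawn from all genes tested, down to a mean of 0.5 normalized counts. A gene that was not called may therefore still differ between the groups. Each run changed 200 of 32783 genes, against 2228 called in these data, and gave every gene the same dispersion. The simulated rates of true and false calls need not hold for these data. No library was a copy of another (chi-square of 4.68 to 7.5 per degree of freedom for pairs of replicates). Coordinates and transcript lengths came from GENCODE M21, and promoter windows from RefSeq, GRCm38.p6. Every member is named, and at most 4 called genes of each other list and 2 of each marker list. Insl3, Crisp2, Spink2, Prm1, Prm2, Tnp1, Tnp2 and Lcn8 were named outside that rule, after their values were seen. Members and lists were chosen with earlier results of these data known. Garin1a, Garin1b, Garin2, Garin3, Fimp, Pdilp, Crisp4, Syt8, Lcn5 and Adam7 had no row under those symbols and were not analysed here.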

Additional observations from a re-analysis of the deposited data

How the results depend on the processing

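Pseudocounts of 0.5 and 5, no filter, TMM and upper-quartile scaling, and the length and GC correction gave 18 to 19 called members, and no filter, pseudocount, scaling or correction for length and GC, with all libraries and no block, ended a call among the 18. Over all genes the count of 2228 became 3798 with a mean of at least 10 and 4127 with at least 1 CPM in 3 libraries, where fewer genes were tested. The correction changed the split over all genes from 1212 higher and 1016 lower to 1442 and 432. Leaving out 1 library gave 0 to 17 members, 0 to 12 related genes and 6 to 1268 genes over all. With a mean of at least 10, a setting chosen after the data were seen, it gave 17 to 22, 15 to 26 and 1714 to 4021.

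Same-numbered libraries did not deviate together (correlations -0.00326, -0.00388 and 0.00611), and not every library correlated best with its own number. No pairing by number was seen in these values. They cannot show whether same-numbered samples were handled together. With the replicate block limma called 7 members, 6 related genes and 703 genes over all, and with the replicate block and the length and GC correction 0, 0 and 26, while 24 members and 25 related genes had an unadjusted p under 0.05, as did 18.5% of all genes. The cause was not tested.

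Signs turned only for uncalled members near 0. Zpbp2 was 0.0013 with upper-quartile scaling and -0.06 to 0.01 with 1 library left out, and Spata16 was -0.08 to 0.01. Cylc2 was -0.02 with the length and GC correction, with or without the replicate block, -0.07 with that correction and a mean of at least 10, and -0.03 to 0.08 with 1 library left out. Agfg1 was 0.09 with the correction, with or without the block, and 0.08 with a mean of at least 10. The 2 planned count models were not run: the table was deposited on the log2 scale, although reads could be recovered from it.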
